A study of Mus musculus with 12 samples.

Results

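The comparison of AdipoAI+LPS with LPS asked how the RNA of LPS-stimulated macrophages differed when the cells had been given AdipoAI beforehand. It rested on 6 arrays, 3 for each group, of the 12 arrays of the study, and it took in every probe, other than control spots and spots named as negative, that the scanner software called well above background on at least 3 of these 6 arrays. The filter kept 31360 of 60694 probes. All cells were Raw264.7, an established mouse macrophage line. The LPS group had 6 h of LPS, a lipopolysaccharide of bacterial cell walls, and the AdipoAI+LPS group had AdipoAI, a small-molecule agonist of the adiponectin receptors, for 24 h and then LPS, which the protocol gives as 100 ng/ml, for 6 h. The other arrays were 3 of cells in DMSO, the vehicle, and 3 of cells in AdipoAI for 24 h. Whether the LPS cells had DMSO before LPS is not stated in the labels. The labels also do not say that the 3 arrays of a group came from separate cultures. The p-values thus measure only the spread between arrays within a group, taken over all 12 arrays of the 4 groups.

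In macrophages, LPS is sensed by Toll-like receptor 4, which turns on NF-kB and interferon regulatory factors and, through them, a wide set of cytokine, chemokine and metabolic genes. Adiponectin, a hormone of fat tissue, acts through its receptors AdipoR1 and AdipoR2 and is known for its anti-inflammatory action on macrophages. Long noncoding RNAs (lncRNAs) are transcripts without a long open reading frame, some of which act in the nucleus on transcription and some in the cytoplasm on RNA stability, and lincRNAs are those that lie between protein-coding genes.

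Each value is a log2 intensity, the brightness of a probe after background subtraction, quantile normalized over the 12 arrays, and a difference of 1 on this scale is a doubling. Nearly all probes carried only an identifier of the array's maker, which no table used here pairs with a gene, so inflammatory genes and macrophage markers could not be looked up and the labelled cell type could not be checked against its markers. The probes that can be named were 15 with a RefSeq accession, each printed in 20 spots and each matched to 1 mouse gene symbol, and 1827 whose names mark lincRNAs.

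Between 29298 and 32147 probes were well above background on each of the 6 arrays, and no spot was saturated. The Pearson r across probes was between 0.9899 and 0.9932 for pairs of LPS arrays. It was 0.9911 for AdipoAI+LPS replicates 2 and 3, but 0.9841 and 0.9838 for replicate 1 with the others, so replicate 1 stood apart. Pairs of arrays from different groups had r between 0.9684 and 0.9811. All LPS arrays were scanned in scan 1 and all AdipoAI+LPS arrays in scan 2, so scan and treatment cannot be told apart in any value of this comparison. The AdipoAI group alone had arrays in both scans, replicates 1 and 2 in scan 1 and replicate 3 in scan 2.

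AdipoAI before LPS was accompanied by higher values of 403 probes and lower values of 315, at the threshold of the study's methods, an unadjusted p under 0.05 in limma together with a change of 1.5 or more, up or down, on the log2 scale. These 718 probes made up 2.29% of all probes tested, 1.29% for the higher and 1% for the lower. Most differences were small. The median log2 fold change over all probes was -0.01, with quartiles of -0.30 and 0.27, and 73.1% of probes lay within 0.5 of 0, whereas 6.78% differed at least 2-fold. The standard error of these differences was 0.179 at the median. With the Benjamini-Hochberg adjusted p under 0.05 in limma and no limit on the fold change, 2819 probes (8.99%) were higher and 3029 (9.66%) lower in AdipoAI+LPS, 5848 (18.6%) in all. The 3 AdipoAI+LPS arrays lay entirely above the LPS arrays in 18.7% of all probes and entirely below them in 20.1%.

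**Figure D1:**
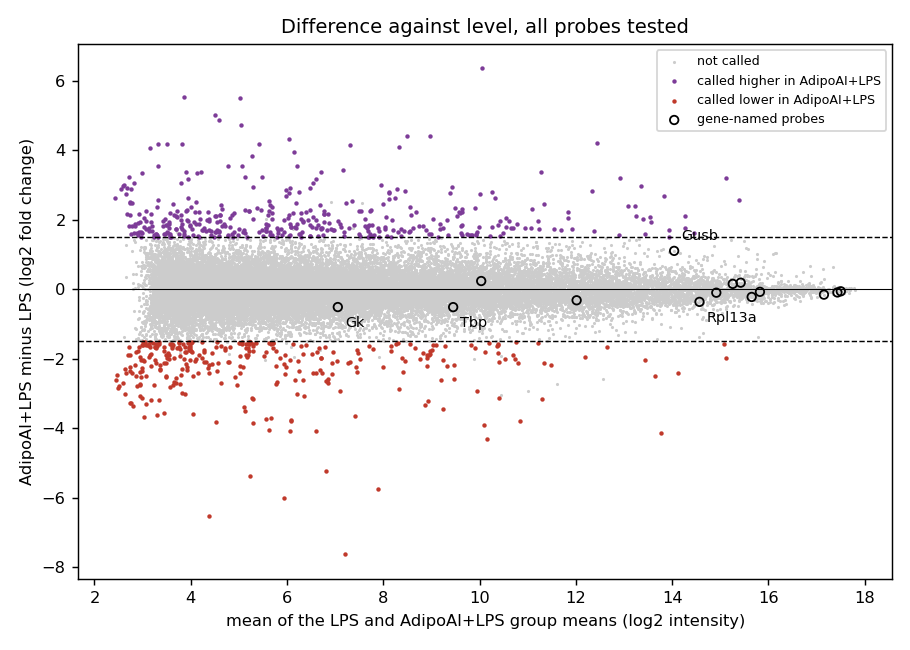
The difference between the groups (y axis, log2 fold change of AdipoAI+LPS minus LPS) against the mean of the group means (x axis, log2 intensity) for the 31360 probes tested. Purple and red points are the 403 and 315 probes called higher and lower, dashed lines mark 1.5 on the log2 scale, and open circles are the 14 gene-named probes, all of which lie between the dashed lines.

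Most calls in both directions were under 3 on the log2 scale. Of the higher calls, 235 had a log2 fold change from 1.5 to under 2, 127 from 2 to under 3, 24 from 3 to under 4, and 17 of at least 4. Of the lower calls, 155, 115, 34 and 11 fell in these classes. The median log2 fold change was 1.88 among the higher calls and -2.0 among the lower calls, values that the threshold of 1.5 itself bounds. Arrays of the 2 groups did not overlap in 391 of the 403 higher calls and 307 of the 315 lower calls. Over all probes 38.8% did not overlap. Of the 403 and the 315, 368 and 289 also had an adjusted p under 0.05 in limma, against 18.6% of all probes. The same arrays made the calls, so these counts follow largely from the call and are a description. With the scan as a block in the fit, 906 probes passed the methods' threshold, of which 491 were among the 718, and 1148 had an adjusted p under 0.05. Without AdipoAI+LPS replicate 1, 693 probes passed the methods' threshold and 4466 the adjusted p.

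Probes called lower stood higher in LPS than in DMSO, and probes called higher stood lower in LPS than in DMSO, when each group's median is set side by side. The median over the 315 lower calls of the group mean was 5.98 for LPS and 3.71 for AdipoAI+LPS, beside 4.30 for DMSO and 3.58 for AdipoAI, in log2 intensity. Over the 403 higher calls it was 4.91 for LPS and 7.04 for AdipoAI+LPS, beside 5.49 for DMSO and 6.78 for AdipoAI. The AdipoAI+LPS median thus lay near that of AdipoAI and on the other side of DMSO from LPS in both directions. For the lower calls it was near the lowest signal well above background, which was 3.20 to 3.47 on the AdipoAI+LPS arrays. Of the 315, 108 were well above background on no AdipoAI+LPS array, so nearness to AdipoAI says little there. The LPS arrays also chose these probes, so the place of LPS against DMSO is a description and was not tested.

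AdipoAI without LPS was measured on separate arrays, 3 of AdipoAI and 3 of DMSO. Over the same 31360 probes, 504 (1.61%) passed the methods' threshold, of which 329 (1.05%) were called higher and 175 (0.558%) lower in AdipoAI than in DMSO, and 15.6% of probes had an adjusted p under 0.05 in limma. Of the probes called higher in AdipoAI+LPS than in LPS, 143 were also called higher in AdipoAI than in DMSO, which is 35.5% of the former and 43.5% of the latter, and 0 were called the other way. Of the lower calls, 54 were shared, which is 17.1% of the lower calls with LPS and 30.9% of those without, and 2 were called the other way. The median log2 fold change of AdipoAI minus DMSO was 1.18 in the 403 higher calls and -0.52 in the 315 lower calls. The effect of AdipoAI with LPS differed from that without LPS, as an interaction in the fit of the 4 groups, in 1067 probes (3.4%) at an adjusted p under 0.05 in limma.

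Calls were spread unevenly over the levels. A probe that was above background in 1 group only had to pass the filter through that group, so the following shares are a description. Of probes well above background on 3 of the 6 arrays, the fewest the filter allows, 206 of 1355 (15.2%) were called by the methods' threshold, against 408 of 26894 (1.52%) of those above background on all 6. The shares for 4 and 5 arrays were 4.42% and 2.54%. By level, 5.14% of probes with a mean log2 intensity under 4 were called, 1.91% of those from 4 to 6, and 0.914% of those at 12 and over. The order was different for the adjusted p, which 12.9% of probes under 4 passed and 24.9% of those from 8 to 10, while the median standard error fell from 0.295 to 0.150 between these levels.

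**Figure D2:**
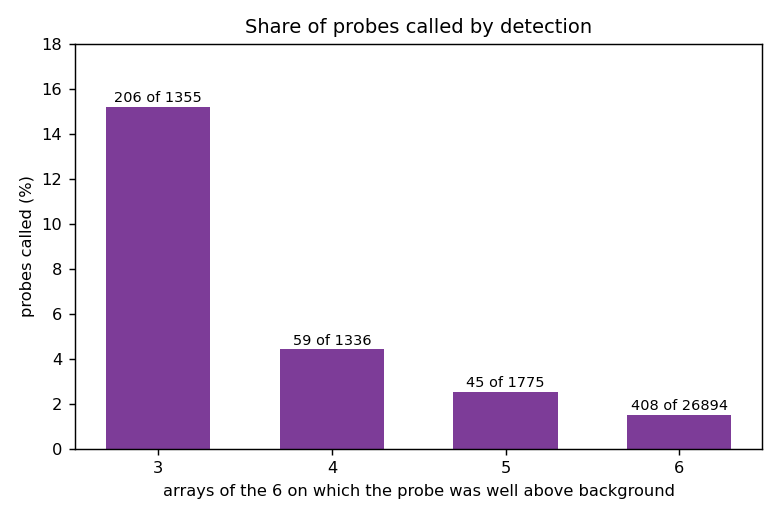
The share of probes called by the methods' threshold (y axis, percent) by the number of the 6 arrays on which a probe was well above background (x axis), with calls and probes tested above each bar. The share is 15.2% at 3 arrays and 1.52% at 6.

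Some probes were seen in a single group. In 232 probes, 4 of them lincRNA-named, all 3 AdipoAI+LPS arrays and no LPS array were well above background. Of all 31360 probes tested, 345 were lincRNA-named. The 232 probes passed the filter through the AdipoAI+LPS arrays alone. For such a probe a bound on the fold change is given, the mean of the bright group against a floor. The floor is the lowest signal well above background on each array of the other group, or the probe's own signal if higher. The bound holds for the values used here and can be undercut with another background correction or fit. The bound reached 2-fold in 39 of the 232 and 4-fold in 11, and the largest was 20.5-fold. In the other direction, 209 probes, 3 of them lincRNA-named, were well above background on all 3 LPS arrays and on no AdipoAI+LPS array. Of these, 67 reached a bound of 2-fold and 6 of 4-fold, and the largest bound was 49.6-fold, lower in AdipoAI+LPS.

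The other groups bear on what was seen in a single group. Of the 232 probes seen in AdipoAI+LPS and not in LPS, 53 were above background on all 3 DMSO arrays and 98 on none, and 79 on all 3 AdipoAI arrays and 77 on none. In 15 of them all AdipoAI arrays and no DMSO array were above background, while the reverse was found in 0. Of the 209 probes seen in LPS and not in AdipoAI+LPS, 84 were above background on all 3 DMSO arrays and 67 on none, and 37 on all 3 AdipoAI arrays and 109 on none. Here 19 were seen on all DMSO arrays and no AdipoAI array, and 0 the other way round. Thus 55 of the 232 and 60 of the 209 were above background on no array of either group without LPS. How often these patterns occurred over all probes is not given here, so the counts are a description.

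Among the 15 gene-named probes, Gusb rose and Gk, Tbp and Rpl13a fell with AdipoAI before LPS, at an adjusted p under 0.05 in limma. This was 4 of the 14 tested, or 28.6%, against 18.6% of all probes, and 0 of the 14 passed the methods' threshold. The median log2 fold change of the 14 was -0.09. Most of these genes are used as reference genes for RNA measurements, and their 20 spots each agreed closely, with a standard deviation within an array of 0.037 at the median. The promoters of the 4 genes are shown because these are the named genes that changed, in RefSeq's mouse assembly GRCm38.p6, from 250 bases before the start of transcription to 50 after it, 5′ to 3′ on the gene's strand. Capitals mark the matches, on either strand, to 5 textbook motifs, the E-box CACGTG, the cyclic AMP response element TGACGTCA, the CCAAT box CCAAT, the TATA box TATAAA and the NF-kB core GGACTTTCC.
Gusb promoter, chr5:130003000-130003299, minus strand: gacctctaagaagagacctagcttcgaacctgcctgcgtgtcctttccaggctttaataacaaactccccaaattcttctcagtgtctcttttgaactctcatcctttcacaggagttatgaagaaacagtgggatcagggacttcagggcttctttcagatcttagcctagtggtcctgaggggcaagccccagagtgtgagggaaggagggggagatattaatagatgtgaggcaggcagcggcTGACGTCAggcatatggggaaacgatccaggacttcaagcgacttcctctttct
Gk promoter, chrX:85776770-85777069, minus strand: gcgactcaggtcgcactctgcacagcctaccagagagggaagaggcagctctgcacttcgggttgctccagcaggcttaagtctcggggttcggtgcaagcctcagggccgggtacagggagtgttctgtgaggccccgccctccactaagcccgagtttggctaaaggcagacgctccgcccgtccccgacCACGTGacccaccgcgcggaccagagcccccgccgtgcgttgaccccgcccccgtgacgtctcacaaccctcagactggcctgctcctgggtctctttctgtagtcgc
Tbp promoter, chr17:15499638-15499937, plus strand: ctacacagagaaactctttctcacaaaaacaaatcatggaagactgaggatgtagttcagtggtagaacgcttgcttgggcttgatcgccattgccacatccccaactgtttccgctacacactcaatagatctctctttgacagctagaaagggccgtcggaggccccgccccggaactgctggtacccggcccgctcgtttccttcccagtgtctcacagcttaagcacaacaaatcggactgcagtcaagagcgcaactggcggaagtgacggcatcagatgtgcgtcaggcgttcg
Rpl13a promoter, chr7:45128696-45128995, minus strand: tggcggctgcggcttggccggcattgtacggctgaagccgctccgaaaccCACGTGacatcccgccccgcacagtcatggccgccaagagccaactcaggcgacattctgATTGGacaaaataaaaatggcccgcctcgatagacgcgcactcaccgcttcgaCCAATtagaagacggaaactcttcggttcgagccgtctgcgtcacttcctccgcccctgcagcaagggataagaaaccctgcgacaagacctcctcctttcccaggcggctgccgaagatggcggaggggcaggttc

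In the Gusb promoter the capitals mark 1 match to TGACGTCA, which runs from base -4 to base 4 across the start site, with no base 0. The same letters occur in 1.79% of the 32851 RefSeq promoters of this length. The Gk promoter holds CACGTG from base -58 to -53, and the Rpl13a promoter holds it from -200 to -195, with CCAAT at -87 and its reverse complement at -140. CACGTG is found in 7.15% of all promoters and CCAAT in 37.4%. No letters of the 5 motifs were found in the window of Tbp, and TATAAA and GGACTTTCC, which 13.6% and 0.344% of all promoters hold, were in none of the 4. No motif overlapped another. These matches describe the sequence and were not tested for binding.

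Gusb encodes beta-glucuronidase, a lysosomal enzyme that removes glucuronic acid from glycosaminoglycans. Its log2 intensity was 13.56, 13.46 and 13.44 on the LPS arrays and 14.49, 14.63 and 14.65 on the AdipoAI+LPS arrays. The groups did not overlap, and the AdipoAI+LPS arrays stood at the top of or above the DMSO arrays, which were at 14.49, 14.36 and 14.34. The difference of AdipoAI+LPS minus LPS was 1.11 ± 0.098 on the log2 scale (SE, n = 3 per group), 2.15-fold, with an adjusted p of 2.82e-05 in limma and a 95% interval from 0.89 to 1.32. With the scan as a block it was 1.01, with an adjusted p of 0.0141 in limma. AdipoAI minus DMSO was 0.39, with an adjusted p of 0.0228 in limma.

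Gk encodes glycerol kinase, which phosphorylates glycerol for lipid synthesis and glycolysis. Its log2 intensity was 7.27, 7.23 and 7.43 on the LPS arrays and 6.92, 6.80 and 6.68 on the AdipoAI+LPS arrays. All AdipoAI+LPS arrays were below all LPS arrays, while the DMSO arrays lay far lower, between 5.78 and 5.80. The difference of AdipoAI+LPS minus LPS was -0.51 ± 0.121 (SE, n = 3 per group), with an adjusted p of 0.0144 in limma. AdipoAI minus DMSO was 0.25, with an adjusted p of 0.195 in limma. The call for Gk was lost without LPS replicate 3, where the adjusted p was 0.0611 in limma, and with the scan as a block, where the difference was -0.63 and the adjusted p 0.174.

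Among genes of transcription and translation, Tbp encodes the TATA-binding protein of the general transcription machinery. Its log2 intensity was 9.84, 9.72 and 9.56 on the LPS arrays and 9.07, 9.15 and 9.37 on the AdipoAI+LPS arrays, which did not overlap. The difference of AdipoAI+LPS minus LPS was -0.51 ± 0.157 (SE, n = 3 per group), with an adjusted p of 0.0444 in limma. Rpl13a encodes a protein of the large ribosomal subunit that is also known for halting the translation of some inflammatory mRNAs after interferon. It was at 14.84, 14.67 and 14.73 on the LPS arrays and 14.38, 14.32 and 14.46 on the AdipoAI+LPS arrays. These arrays did not overlap either, and the difference was -0.36 ± 0.094 (SE, n = 3 per group), with an adjusted p of 0.0223 in limma. Nono, an RNA-binding protein of nuclear paraspeckles, was at 12.26, 12.28 and 11.98 on the LPS arrays and 11.89, 11.89 and 11.80 on the AdipoAI+LPS arrays. The Nono arrays did not overlap, but its difference of -0.31, with a 95% interval from -0.56 to -0.07, had an adjusted p of 0.0706 in limma. Without LPS in the medium, AdipoAI minus DMSO was -0.39 for Tbp, -0.42 for Rpl13a and -0.56 for Nono, with adjusted p of 0.117, 0.013 and 0.00652 in limma.

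The calls for Tbp and Rpl13a were lost under several alternatives. The adjusted p of Tbp in limma rose to 0.126 without AdipoAI+LPS replicate 1, 0.108 without replicate 2, and 0.131, 0.107 and 0.0594 without LPS replicates 1, 2 and 3. That of Rpl13a rose to 0.0569 and 0.072 without AdipoAI+LPS replicates 1 and 2, and to 0.0792 and 0.0616 without LPS replicates 1 and 3. In a fit of the 6 arrays alone it was 0.0541 for Tbp and 0.0785 for Rpl13a, and with no filter on dim probes 0.0724 for Tbp. With the scan as a block it was 0.37 for Tbp, at a difference of -0.57, and 0.197 for Rpl13a, at -0.46. AdipoAI replicate 3, of scan 2, lay 0.06 above replicates 1 and 2, of scan 1, for Tbp, 0.10 above them for Rpl13a and for Gusb, and 0.12 above them for Gk.

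The remaining gene-named probes did not pass the test, and their intervals show what size of difference the arrays allow. For Tfrc, the transferrin receptor that takes up iron, the LPS arrays were at 15.28, 15.28 and 15.42 and the AdipoAI+LPS arrays at 15.55, 15.40 and 15.61, so the groups overlapped. Its difference was 0.19, with a 95% interval from -0.07 to 0.45 and an adjusted p of 0.283 in limma, whereas AdipoAI minus DMSO was 0.74, with an adjusted p of 0.00196. The difference between these 2 effects was -0.55, with an adjusted p of 0.122 in limma. G6pd2, a glucose-6-phosphate dehydrogenase of the pentose phosphate pathway, differed by 0.24, with an interval from -0.05 to 0.53. Hprt, an enzyme of purine salvage, differed by 0.16, from -0.10 to 0.41. B2m, the light chain of MHC class I, was at 16.0, 15.66 and 15.92 on the LPS arrays and 15.80, 15.77 and 15.79 on the AdipoAI+LPS arrays. The B2m groups overlapped, at a difference of -0.07 with an interval from -0.32 to 0.18.

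The probes for genes of the cytoskeleton, glycolysis and protein folding did not pass the test either. Actb, a cytoplasmic actin, differed by -0.22, with a 95% interval from -0.52 to 0.08, and Tuba1b, an alpha-tubulin, by -0.15, from -0.34 to 0.03. The chaperone Hsp90ab1 differed by -0.10, from -0.34 to 0.15, and the prolyl isomerase Ppia by -0.09, from -0.28 to 0.10. Gapdh, the glycolytic dehydrogenase, had the smallest difference of the 14, -0.06, with an interval from -0.25 to 0.14. The adjusted p in limma lay between 0.236 for Tuba1b and 0.69 for Gapdh over these 5 genes, and was 0.699 for B2m, 0.371 for Hprt and 0.229 for G6pd2. The 15th gene, Ldhal6b, a lactate dehydrogenase of the testis, was well above background on none of the 12 arrays and was not tested. For genes with many processed copies in the mouse genome, such as Gapdh, Ppia and Rpl13a, and for G6pd2, a copy of the X-linked enzyme gene, signal from a copy cannot be told apart here, since the probe sequences were not used.

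**Figure D3:**
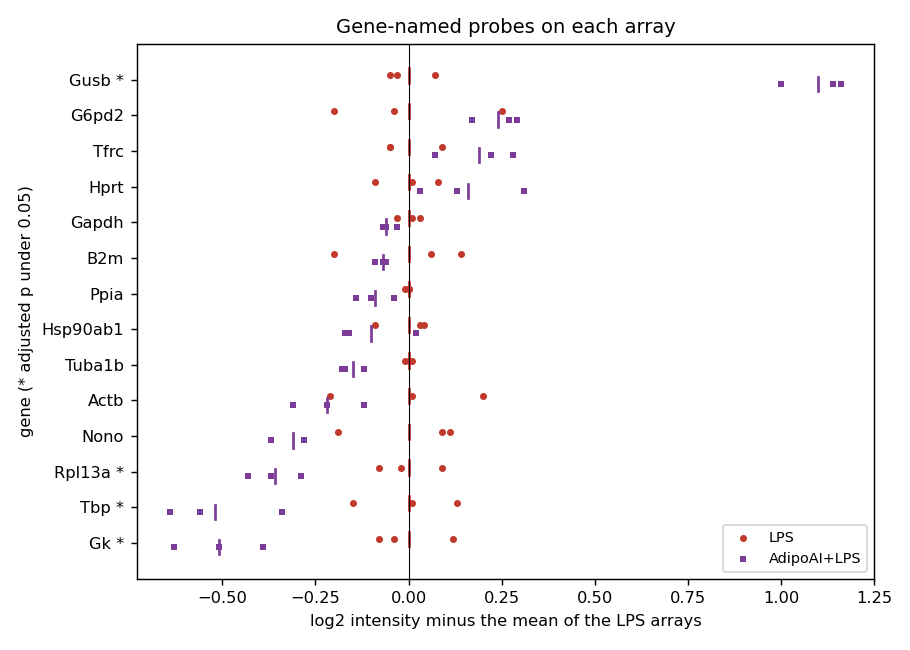
Each gene-named probe on each array, as the log2 intensity minus the mean of the LPS arrays (x axis). Circles are LPS arrays, squares AdipoAI+LPS arrays, vertical bars the group means, and a star marks an adjusted p under 0.05 in limma, held by Gusb, which stands 1.11 to the right, and by Rpl13a, Tbp and Gk, whose squares all lie to the left of their circles.

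The probes with the largest differences among those seen on all 6 arrays carry only the maker's identifiers. By the rule of an adjusted p under 0.05 in limma and no overlap between the groups, the largest rise was that of ASMM10P039480, at a log2 intensity of 6.55, 6.81 and 7.27 on the LPS arrays and 13.16, 13.43 and 13.11 on the AdipoAI+LPS arrays. Its log2 fold change of AdipoAI+LPS minus LPS was 6.36 ± 0.279 (SE, n = 3 per group), 82.1-fold, and AdipoAI minus DMSO was 6.42. The probe was thus higher with AdipoAI both with and without LPS, and the 2 effects differed by -0.06 ± 0.395 (SE), with an adjusted p of 0.97 in limma. ASMM10P051609 was at 6.21, 6.21 and 6.46 on the LPS arrays and 10.64, 10.65 and 10.80 on the AdipoAI+LPS arrays. DMSO lay between these groups for it, at 7.89, 8.29 and 8.25, and its log2 fold change was 4.40 ± 0.153 (SE, n = 3 per group) with LPS and 2.70 without.

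By the same rule, among probes seen on all 6 arrays, the largest falls were those of ASMM10P027093 and ASMM10P028071. Over all probes tested, the lowest log2 fold change was -7.63, for a probe that did not meet the rule. ASMM10P027093 was at 10.54, 11.03 and 10.70 on the LPS arrays and 5.29, 4.73 and 5.05 on the AdipoAI+LPS arrays, with DMSO at 8.20, 7.94 and 7.82. It was higher in LPS than in DMSO on every array, and its log2 fold change of AdipoAI+LPS minus LPS was -5.73 ± 0.238 (SE, n = 3 per group), 53.2-fold lower. ASMM10P028071 was at 9.35, 9.40 and 9.54 on the LPS arrays and 4.27, 4.22 and 4.10 on the AdipoAI+LPS arrays. It stood near its DMSO values of 9.75, 9.73 and 9.79 in LPS, and its log2 fold change was -5.24 ± 0.098 (SE, n = 3 per group), 37.7-fold lower. The adjusted p in limma of the 4 probes lay between 6.92e-10, for ASMM10P028071, and 2.07e-07, for ASMM10P039480, and with the scan as a block the differences were 6.15, 4.09, -4.93 and -5.18 in the order given. With normexp background correction they were smaller, 5.69, 3.66, -4.33 and -3.31. The probe ASMM10P027093 was 0.80 lower on AdipoAI replicate 3, of scan 2, than on replicates 1 and 2, of scan 1.

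**Figure D4:**
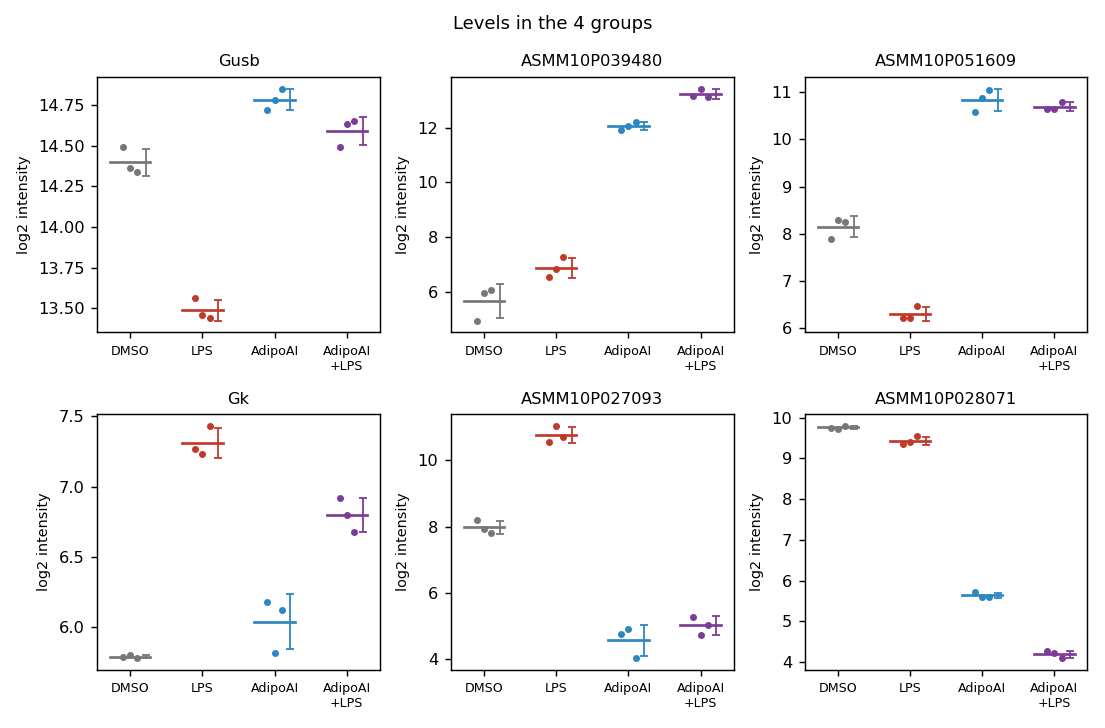
Levels (y axis, log2 intensity, a range of its own in each panel) of Gusb, Gk and the 4 maker-named probes on each array of the 4 groups (x axis). Points are arrays, horizontal lines group means, and error bars the standard deviation (n = 3), and for ASMM10P039480 and ASMM10P028071 the 2 groups with AdipoAI stand apart from the 2 without it, while for Gusb the LPS arrays alone lie below the others.

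Most lincRNA-named probes were not above background. Of the 1827 probes, 345 (18.9%) passed the filter, against 53.1% of the probes with the most common form of maker identifier, and the median level of those tested was 4.74 against 6.41 in log2 intensity. By the methods' threshold 3 of the 345 (0.87%) were higher and 0 lower in AdipoAI+LPS, against 2.29% of all probes. With the adjusted p under 0.05 in limma, 20 were higher and 6 lower, 7.54% against 18.6% of all probes, and their median log2 fold change was 0.03 against -0.01. Their names start with human in 197 of the tested probes, with mouse in 125, and with MM9LINCRNAEXON in 23, and the files do not explain these prefixes.

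All 3 called lincRNA-named probes were dim. The probe mouselincRNA1318+_P1 was at 3.14, 2.83 and 2.69 on the LPS arrays, none of them well above background, and at 4.99, 4.66 and 4.61 on the AdipoAI+LPS arrays. The groups did not overlap, and the probe was higher in AdipoAI+LPS, by a bound of 2.53-fold. Its measured log2 fold change was 1.87 ± 0.217 (SE, n = 3 per group), with an adjusted p of 2.00e-04 in limma. It passed the filter through the AdipoAI+LPS arrays alone, however, and this p rests on LPS values not well above background. With normexp background correction the log2 fold change was 0.37, and with the scan as a block 1.26, with an adjusted p of 0.0784 in limma. Both were smaller than the bound. The probe humanlincRNA0409-_P1 was at 2.40, 2.89 and 3.21 on the LPS arrays, likewise not well above background. On the AdipoAI+LPS arrays it was at 4.95, 4.34 and 4.38, higher by a bound of 2.21-fold. With normexp background correction its log2 fold change was 0.35, smaller than the bound. This probe too passed the filter through the AdipoAI+LPS arrays alone. Its adjusted p of 0.0106 in limma, or 0.458 with the scan as a block, thus rests on LPS values not well above background. The probe humanlincRNA0071-_P1 overlapped between the groups, at 4.03, 2.23 and 1.11 on the LPS arrays and 3.61, 4.20 and 4.22 on the AdipoAI+LPS arrays, and its adjusted p was 0.142 in limma. Its LPS arrays spread widely and only replicate 1 of them was well above background, and with the scan as a block its log2 fold change was -0.35.

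The 26 lincRNA-named probes with an adjusted p under 0.05 in limma had measured log2 fold changes from -1.40 to 1.87. Of these, 17 were well above background on all 6 arrays, 13 of the higher and 4 of the lower. Of the 13 seen on all 6 arrays 2 rose by at least 1 on the log2 scale, and of the 4 lower ones 1 fell by at least 1. In 4 of the 20 higher probes no LPS array, and in 1 of the 6 lower probes no AdipoAI+LPS array, was well above background. Their measured fold changes thus rest on values not well above background. AdipoAI minus DMSO was also positive with an adjusted p under 0.05 in limma in 5 of the 20, and negative in 0 of the 6, where 15.6% of all probes passed that test in either direction. A few of them are described here, chosen after their values were seen. The probe humanlincRNA2163-_P1 was at 7.93, 8.45 and 8.71 on the LPS arrays and 10.48, 9.53 and 9.34 on the AdipoAI+LPS arrays, and its log2 fold change was 1.42 with LPS and 1.38 without. In contrast mouselincRNA0768+_P1 was at 6.89, 6.97 and 7.06 on the LPS arrays and 6.19, 5.99 and 6.16 on the AdipoAI+LPS arrays, with DMSO at 6.24, 5.95 and 6.06. Its LPS arrays stood above all others, its log2 fold change was -0.86 with LPS and 0.08 without, and the difference between the 2 effects was -0.93, with an adjusted p of 0.0113 in limma. It was the 1 probe of the 26 (3.85%) whose interaction passed the test, a share near the 3.4% of all probes.

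**Figure D5:**
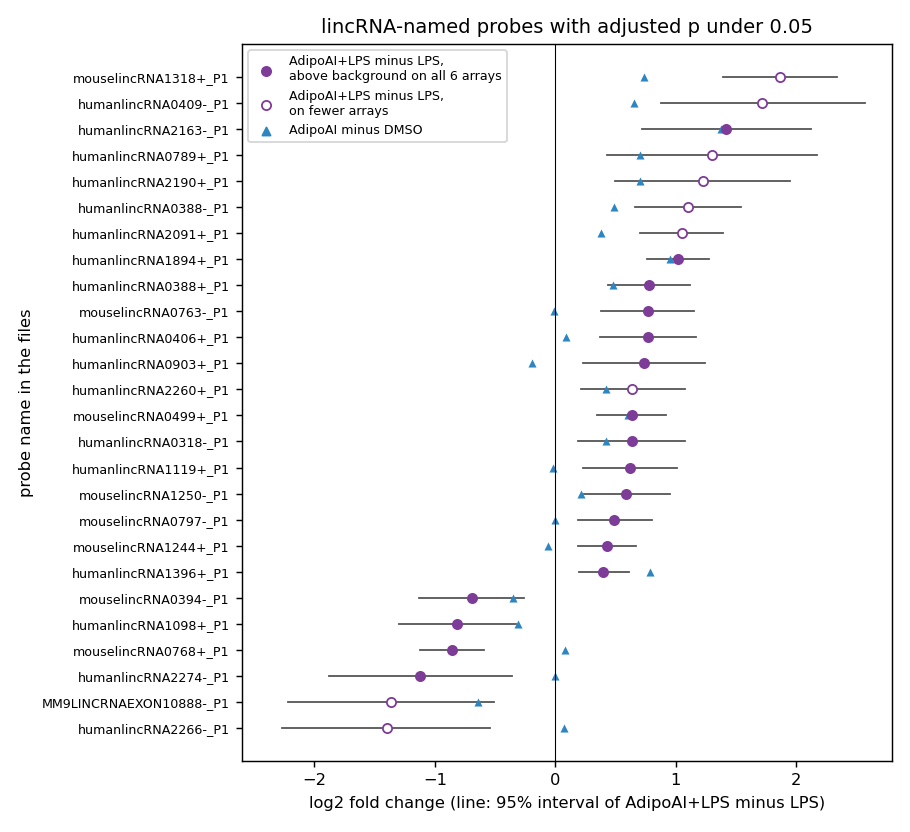
The 26 lincRNA-named probes with an adjusted p under 0.05 in limma. Circles with 95% intervals are the measured log2 fold change of AdipoAI+LPS minus LPS (x axis), and triangles that of AdipoAI minus DMSO. Circles are filled where the probe was well above background on all 6 arrays. They are open on fewer, where the measured value rests partly on signal not well above background and is not a bound. 20 circles lie to the right of 0 and 6 to the left.

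LincRNA names that differ only in a + or a - were taken as the strands of one locus, and both strands were on the array for 876 loci. Both strands passed the filter in 35 of these. At an adjusted p under 0.05 in limma, 8 of the 35 had 1 strand that differed between AdipoAI+LPS and LPS, and 1 had both, so that 10 of the 70 probes (14.3%) passed, against 18.6% of all probes. For humanlincRNA0388, the + probe was at 5.15, 5.23 and 5.14 on the LPS arrays and 6.08, 5.92 and 5.85 on the AdipoAI+LPS arrays, and the - probe at 2.54, 2.63 and 2.75 and at 4.06, 3.51 and 3.64. The + probe was higher in AdipoAI+LPS by 0.78 on the log2 scale, with an adjusted p of 0.00564 in limma. The - probe was well above background on no LPS array and passed the filter through the AdipoAI+LPS arrays alone. Its difference is thus given as a bound, 1.25-fold, and its adjusted p of 0.00358 in limma rests on LPS values not well above background.

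Control features were measured beside these results. The mean log2 intensity before normalization of the spots named as negative was 1.27, 1.42 and 1.46 on the LPS arrays and 1.18, 1.16 and 1.25 on the AdipoAI+LPS arrays, so the AdipoAI+LPS arrays were a little dimmer there. The difference between the control features for Gapdh with the suffixes 3 and 5, which the files do not explain, was 1.57, 1.56 and 1.82 on the LPS arrays and 1.33, 1.45 and 1.91 on the AdipoAI+LPS arrays. These groups overlapped. In AdipoAI, replicate 3, of scan 2, differed from replicates 1 and 2, of scan 1, by 0.12 at the median over the 403 higher calls and by -0.06 over the 315 lower calls, against -0.001 over all probes. That difference was at least 1.5 upward in 10 of the 403 higher calls, against 0.488% of all probes. It was at least 1.5 downward in 7 of the 315 lower calls, against 0.756% of all probes. In either direction it was at least 1.5 in size in 1.24% of all probes. The part of the scan in the calls was not tested beyond these values and the fit with the scan as a block.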

How the data were processed

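The authors deposited 1 scanner file per array with the intensity of each spot, background-subtracted by Agilent Feature Extraction 11.0.1.1 (per the submitters' processing notes), not normalized between arrays. A deposited series table holds the authors' values on a log2 scale, which the methods say were quantile normalized and cleared of low-intensity probes. It correlated with the values used here at r of at least 0.9993 over 31277 probes. Each of its columns had a median near 3.52 over all probes it holds, and its centring is not stated.

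Of 62939 spots, 1439 control spots and 300 spots named as negative were left out, and 60915 probes remained, of which 221 with a flagged outlier spot were dropped. For probes with 20 spots, flagged spots were dropped and the rest averaged. Quantile normalization of the log2 values used all 12 arrays, and probes that were well above background on 3 or more of the 6 arrays were fitted in 1 limma model of the 4 groups. Intervals are 95%. P-values were adjusted by Benjamini-Hochberg over the 31360 probes tested. Array number, 3 per group, limits the precision. In data simulated for this comparison on 31360 probes, the fit called 98% of 100 probes changed by 2 and 100% of 100 changed by 3 on the log2 scale, and also 37 of the unchanged probes. The simulated arrays had independent normal noise around each probe's mean, with no difference between scans and no background floor. These counts therefore do not give the error rate of the real comparison.

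The groups, the lists and the rule for naming probes were chosen with earlier results of these data known. The rule named the RefSeq-named probes, the lincRNA-named probes past the methods' threshold, and, among probes above background on all 6 arrays with an adjusted p under 0.05 and no overlap, the 2 largest rises and 2 largest falls. Gene lists and macrophage markers were not run, since the files do not pair probes with genes. Symbols came from the RefSeq table of GRCm38.p6, which matched 15 of 15 accessions. Same-numbered arrays of the 2 groups deviated from their group means with r of -0.096, 0.103 and -0.161. This gave no sign of pairing by number but, with 3 arrays a group, cannot exclude it. Alternatives covered normalization, background correction, filters, the series table, the arrays fitted, the variance model, the fold and p thresholds, blocks for replicate number or scan, and leaving out 1 array at a time. R 4.3.3, limma 3.58.1, Python 3.11.15, pandas 2.3.3 and matplotlib 3.10.9 were used.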

Additional observations from a re-analysis of the deposited data

Results flagged for a closer look

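For 2 of the 14 gene-named probes tested, AdipoAI had a different effect with LPS than without it, by the interaction in limma. Over all probes the share was 3.4%. For Gusb the effect with LPS minus that without was 0.72 on the log2 scale, with an adjusted p of 0.0161, and for Gk it was -0.76, with an adjusted p of 0.0373. The difference was also found for 3 of the 4 maker-named probes, with values of 1.70 for ASMM10P051609 (adjusted p of 0.00151 in limma), -2.33 for ASMM10P027093 (adjusted p of 0.00336) and -1.12 for ASMM10P028071 (adjusted p of 0.00125). These probes were picked for the size of their difference with LPS, which is a part of the interaction, so their interaction is a description. The AdipoAI+LPS arrays were in scan 2 and the LPS and DMSO arrays in scan 1, and the part of the scan in these differences was not tested.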

How the results depend on the processing

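Of 375 values of named probes under alternatives, 346 kept their direction and their side of the threshold, 22 lost the call, 5 gained it and 2 reversed. The reversals were with the scan as a block, Gapdh at 0.02 and humanlincRNA0071-_P1 at -0.35, and the cause was not tested. Neither had an adjusted p under 0.05 in limma in either fit. In the fit without the block, however, humanlincRNA0071-_P1 was called by the methods' threshold, at a log2 fold change of 1.55. Gusb and the 4 maker-named probes kept an adjusted p under 0.05 in limma in every alternative.

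The 718 probes past the methods' threshold became 413 with the filter on all 6 arrays, which tests fewer probes, 197 with normexp background correction, and 5399 with a fold change over 1.5 in place of a log2 fold change of 1.5. Without 1 array they ranged from 693 to 923. No other scaling moved the share of higher calls, 56.1%, by over 10 percentage points. The 5848 probes with an adjusted p under 0.05 in limma became 4619 in a fit of the 6 arrays alone. They ranged from 3952 to 5007 without 1 array, which leaves fewer samples, and became 1148 with the scan as a block, an estimate that rests on the AdipoAI group. The 3 lincRNA-named calls became 6 with the filter on 3 of the 12 arrays, 0 with that on all 6, 12 with no filter, 0 with normexp and 1 with the scan as a block. Without 1 array they ranged from 2 to 13, with 5, 13 and 6 without AdipoAI+LPS replicates 1, 2 and 3 and 6 without LPS replicate 3. Counting probes detected on at least 2 arrays of a group and none of the other gave 693 for AdipoAI+LPS and 563 for LPS. Dim probes limit what could be seen, with a median standard error of 0.295 under a level of 4.

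With the replicate number as a block, 723 probes passed the methods' threshold and 2034 the adjusted p. In this fit Gk, Tbp, Rpl13a and humanlincRNA0409-_P1 had adjusted p of 0.107, 0.135, 0.148 and 0.0513 in limma. The labels do not say whether arrays with the same number belong together. Not every array correlated best with its own number.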
